A study of Mus musculus with 10 samples.

Results

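The genes described here form the MHC class II antigen presentation pathway of the mouse: the classical chains H2-Aa, H2-Ab1 and H2-Eb1, the invariant chain Cd74, the peptide editor chains H2-DMa and H2-DMb1, their inhibitor chains H2-Oa and H2-Ob, and the transactivator Ciita. They were chosen by symbol, with earlier results of these data known, and all 9 were found among the 48897 rows of each expression table. In the GRCm38 annotation 7 of them lie on chromosome 17 between positions 34092340 and 34316674, Ciita lies on chromosome 16, and Cd74 lies outside the MHC.

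RNA-seq expression values were available for 10 libraries in 4 groups. The epithelium set was made from EpCAM+ CD45- cells sorted from the prostates of 3-month-old C57BL/6 mice, with 3 control libraries (A, B and C) and 3 libraries labelled Arid1a KO (A, B and C), whose genotype adds Arid1aPC-/-, a deletion by a Cre driven by the Probasin promoter. Neither group was wild type, since controls and Arid1a KO mice shared a further deletion made in the same way. The cell line set was made from Myc-CaP, a prostate cancer line of a c-Myc transgenic mouse with FVB given as its strain, with 2 empty vector libraries and 2 Arid1a KO libraries (1 and 2 in each). Epithelium values are RPKM (reads scaled to gene length and to the mapped reads of a library) and Myc-CaP values are TPM (the same idea with a fixed sum per library), so levels are not compared between the 2 tables. The labels describe Myc-CaP as cultured cells, while the study's methods also describe such cells sorted from grafts, and neither source says whether the 2 libraries of a group were separate clones or cultures, so p-values there measure only the spread between these libraries.

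MHC class II molecules display peptides from endosomes to CD4+ T cells. An alpha and a beta chain assemble with the invariant chain in the endoplasmic reticulum, cathepsins trim the invariant chain in endosomes, and the DM dimer exchanges its last fragment for a peptide, a step that the DO dimer restrains. Transcription of these genes depends on Ciita, which binds no DNA itself but docks on RFX, CREB and NF-Y proteins at the X and Y boxes of class II promoters. Dendritic cells, macrophages and B cells express the pathway constitutively, and epithelial cells can be induced to do so by interferon gamma.

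Promoters of 6 of the 9 members were present in the RefSeq promoter set (GRCm38.p6, 32851 windows of 250 bases before and 50 bases after a gene start). Windows were searched on both strands for GNAAC, letters of the X box, followed after 15 to 45 bases by ATTGG, the Y box core, a pattern composed after the windows had been viewed; the 2 motifs cannot overlap under this spacing. The pair was found in H2-Aa, H2-Eb1, H2-Oa, H2-Ob and H2-DMb1 and in neither of the windows of H2-DMa, against 4.93% of all promoter windows. ATTGG alone occurred in 37.4% of all windows. In the 5 genes the motifs were separated by 25 to 28 bases. The promoter bases printed next are those -120 to -39 from the start of 4 of them, 3 of which fell in the epithelium (H2-Aa, H2-Eb1, H2-Oa) and 1 of which did not pass the test (H2-Ob), with GNAAC and ATTGG in capitals. The windows are chr17:34287862-34287943 on the minus strand for H2-Aa and, on the plus strand, chr17:34305747-34305828 for H2-Eb1, chr17:34092259-34092340 for H2-Oa and chr17:34238785-34238866 for H2-Ob.
H2-Aa: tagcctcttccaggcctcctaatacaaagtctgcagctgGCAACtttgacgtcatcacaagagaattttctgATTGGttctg
H2-Eb1: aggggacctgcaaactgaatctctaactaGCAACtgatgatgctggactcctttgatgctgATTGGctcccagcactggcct
H2-Oa: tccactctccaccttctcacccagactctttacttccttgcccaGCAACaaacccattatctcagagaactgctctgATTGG
H2-Ob: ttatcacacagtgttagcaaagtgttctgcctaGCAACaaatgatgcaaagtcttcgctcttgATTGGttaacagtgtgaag

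Before the results, 3 facts about the libraries bear on them. Arid1a RNA was not lower in the epithelium libraries labelled Arid1a KO (28.8 to 31.1 RPKM) than in the controls (21.9 to 27.8 RPKM; log2 fold change 0.25, limma adjusted p = 0.054), and whether a deleted exon would show in a whole-gene value was not tested. In Myc-CaP cells it was lower, at 39.5 and 40.3 against 60.5 and 61.0 TPM. Ptprc, which encodes the CD45 that the sort removed, was present in every epithelium library and was higher in those labelled Arid1a KO (56.2 to 58.1 RPKM) than in the controls (26.0 to 30.3 RPKM).

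The libraries labelled Arid1a KO B and C also stood apart from the other 4 epithelium libraries in a class II gene. H2-Ea-ps, the alpha chain partner of H2-Eb1, is annotated as a polymorphic pseudogene at chr17:34341959-34344645 on the minus strand. Mice of the H-2b haplotype, such as C57BL/6, carry a deletion that removes its promoter, so they make no such transcript. It measured 0.238, 0.614 and 0.489 RPKM in controls A, B and C and 0.501 RPKM in Arid1a KO A, but 117 RPKM in Arid1a KO B and 260 RPKM in Arid1a KO C. In all, 15 genes reached at least 1 RPKM in both B and C and at least 20 times the highest of the other 4 libraries, among them Gm10260, Ifi44l and Ighv14-4. Each of the other 14 pairs of libraries gave 0 to 4 such genes. The genetic background of B and C was not tested, and results for the members are therefore also given with B and C left out.

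**Figure D1:**
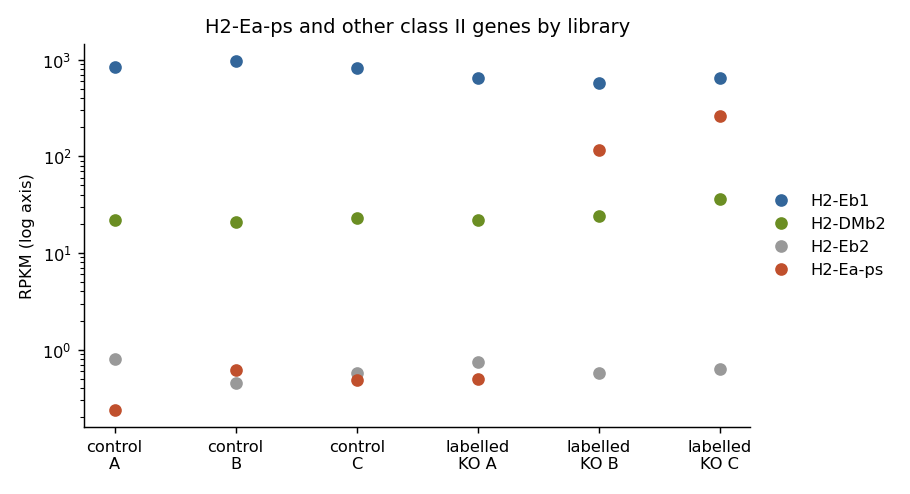
H2-Ea-ps and 3 other class II genes in the 6 epithelium libraries, as RPKM on a log axis, 1 point per library. H2-Ea-ps lies below 1 RPKM in the controls and in Arid1a KO A and at 117 and 260 RPKM in Arid1a KO B and C, while H2-Eb1 stays between 569 and 959 RPKM.

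In sorted epithelium the classical class II chains were abundant, ranking between 25 and 83 among all genes of each library, and all 3 were lower in the libraries labelled Arid1a KO. In mean RPKM, H2-Ab1 fell by 25.3%, H2-Eb1 fell by 28.8% and H2-Aa fell by 18.1%, and H2-Oa, a chain of the DO inhibitor, fell by 20.7%. The other 5 members, among them Ciita and both DM chains, did not pass the test. In counts, 4 of 9 members were called at a limma adjusted p under 0.05, all of them lower. Of the 16275 genes tested 57.1% were called, 29.6% lower and 27.5% higher. The members had a median log2 fold change of -0.19, against -0.03 for all genes tested. No member reached the 1.5-fold change with an unadjusted p under 0.05 that 24.8% of all genes reached.

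H2-Ab1, the beta chain of the I-A molecule, measured 1278, 1304 and 1213 RPKM in the controls and 948, 886 and 1002 RPKM in the libraries labelled Arid1a KO. Every control was above every library labelled Arid1a KO. The means were 1265 ± 47.0 and 945 ± 58.4 RPKM (SD, n = 3 in each), the log2 fold change was -0.42 with a standard error of 0.096, and the limma adjusted p was 0.00751.

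H2-Aa, the alpha chain of I-A, measured 907, 935 and 873 RPKM in the controls and 726, 717 and 781 RPKM in the libraries labelled Arid1a KO. The groups did not overlap, and the log2 fold change was -0.29 with a standard error of 0.087 and a limma adjusted p of 0.024. H2-Eb1, the beta chain of I-E, measured 845, 959 and 813 RPKM against 642, 569 and 653 RPKM. These groups did not overlap either, and the log2 fold change of -0.49, with a standard error of 0.104, was the largest decrease among the members (limma adjusted p = 0.0055). Arid1a KO A, whose H2-Ea-ps stood at the control level, was itself below every control for all 3 chains.

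The invariant chain Cd74, which fills the peptide groove and carries the dimers to endosomes, was the most abundant member, ranking between 6 and 12 among all genes of each library. It measured 2548, 2756 and 2468 RPKM in the controls and 2186, 2128 and 2502 RPKM in the libraries labelled Arid1a KO. Arid1a KO C lay above control C, so the groups overlapped. The log2 fold change was -0.19 with a standard error of 0.124, and the limma adjusted p was 0.22.

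The DM chains were expressed far below the classical chains. H2-DMa measured 14.5, 14.3 and 14.6 RPKM in the controls and 14.8, 13.0 and 16.1 RPKM in the libraries labelled Arid1a KO, a log2 fold change of 0.01 with a standard error of 0.081 (limma adjusted p = 0.931). H2-DMb1 measured 65.7, 63.0 and 58.7 RPKM against 56.0, 53.3 and 61.5 RPKM. Its groups overlapped through Arid1a KO C, and its log2 fold change of -0.13 had a limma adjusted p of 0.169. H2-DMb2, a close copy of H2-DMb1 with which reads may be shared, measured 20.9 to 22.9 RPKM in the controls and 22.0, 24.1 and 35.8 RPKM in the libraries labelled Arid1a KO (limma adjusted p = 0.174), so the values of both copies are uncertain.

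The DO chains, known best from B cells and some dendritic cells, were lower still. H2-Oa measured 5.50, 6.19 and 5.05 RPKM in the controls and 4.01, 4.67 and 4.60 RPKM in the libraries labelled Arid1a KO, without overlap (log2 fold change -0.28, standard error 0.093, limma adjusted p = 0.0352). H2-Ob measured 2.91, 2.16 and 2.77 RPKM against 2.13, 2.70 and 2.24 RPKM. The H2-Ob groups overlapped, with a limma adjusted p of 0.451. Of the 9 members, 4 did not overlap between groups, all of them lower in the libraries labelled Arid1a KO, as did 34.4% of all genes tested (32.4% did so in the other direction and 66.7% in either).

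Ciita, the master regulator of these genes, did not fall with them. It measured 4.95, 4.01 and 4.71 RPKM in the controls and 4.62, 5.05 and 6.46 RPKM in the libraries labelled Arid1a KO. The highest value was that of Arid1a KO C, and the groups overlapped. The log2 fold change was 0.19 with a standard error of 0.122 (limma adjusted p = 0.213). With Arid1a KO B and C left out the log2 fold change of Ciita was 0.02.

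**Figure D2:**
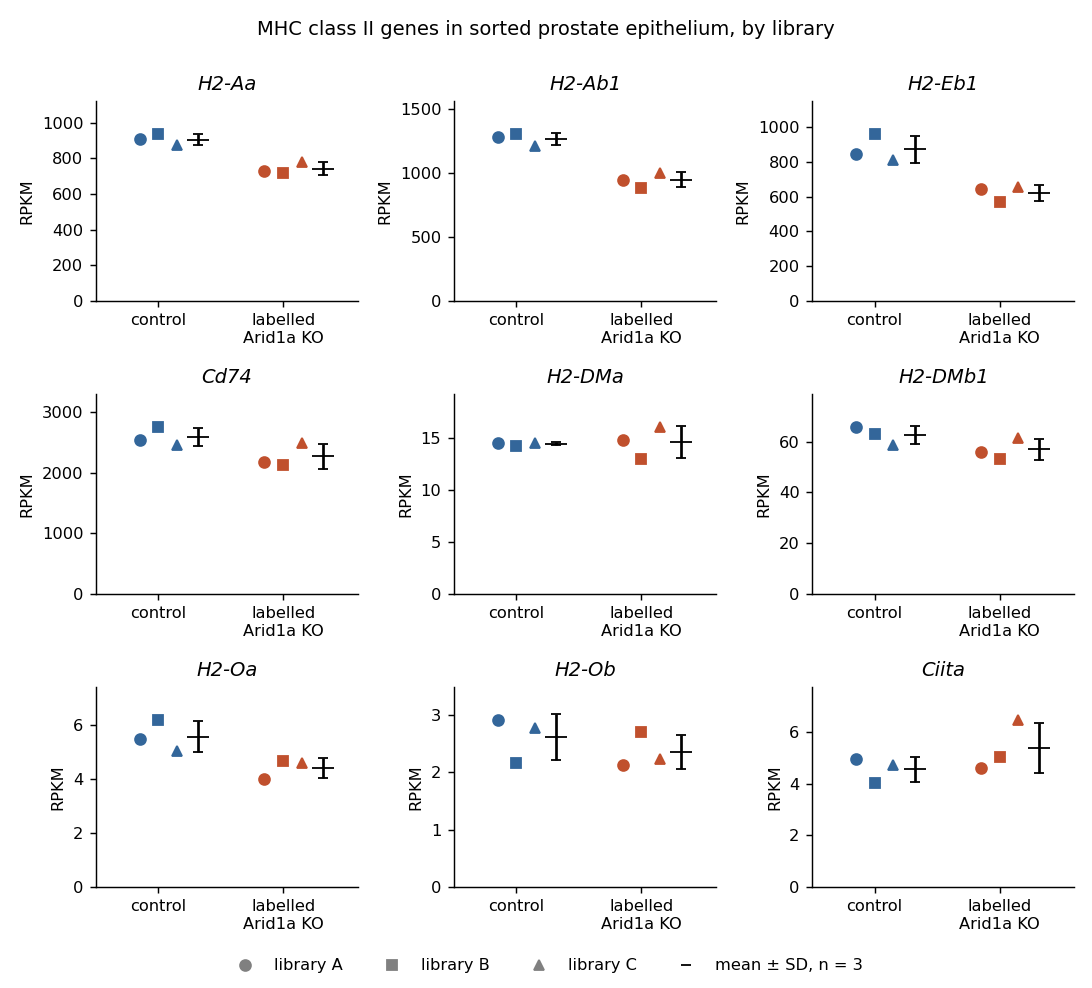
Levels of the 9 class II members in the 6 sorted epithelium libraries, as RPKM on axes that start at 0, with 1 symbol per library and the mean ± SD (n = 3) beside each group. The groups are separate for H2-Aa, H2-Ab1, H2-Eb1 and H2-Oa and overlap for the other 5.

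Within a library the order of levels, per length, was nearly fixed. Cd74 was highest, then H2-Ab1, then H2-Aa and H2-Eb1, then H2-DMb1 and H2-DMa. H2-Aa was above H2-Eb1 in 5 of 6 libraries, and their ranges overlapped (717 to 935 and 569 to 959 RPKM over the 6 libraries). Ciita and H2-Oa, at 4.01 to 6.46 and 4.01 to 6.19 RPKM, exchanged places between libraries, and H2-Ob was lowest throughout. Together the members held 1.22% to 1.28% of the summed RPKM in the controls and 1.10% to 1.25% in the libraries labelled Arid1a KO.

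When 1 library was left out at a time, H2-Ab1 and H2-Eb1 stayed called in every fit, and 2 or 3 members were called in all. H2-Aa lost its call without control A (adjusted p = 0.069), control C (adjusted p = 0.0565), Arid1a KO A (adjusted p = 0.084) or Arid1a KO B (adjusted p = 0.0707) in limma. H2-Oa kept its call only without control C. With Arid1a KO B and C both left out, an alternative added after seeing the data, no member was called by limma, 3 had an unadjusted p under 0.05, and the log2 fold changes were -0.41 for H2-Ab1, -0.44 for H2-Eb1, -0.32 for H2-Aa and -0.39 for H2-Oa. That fit has a single library labelled Arid1a KO, which is assumed to vary like the controls. In the same fit the log2 fold changes were -0.24 for Cd74, -0.15 for H2-DMb1, -0.20 for H2-Ob, 0.03 for H2-DMa and 0.02 for Ciita.

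How far the class II genes were lower, and for some of them the direction, depended on what the libraries were scaled to. The RPKM sums differed between groups, at 441646 to 473331 in the controls and 397999 to 403031 in the libraries labelled Arid1a KO. With all libraries brought to an equal sum, the median over all genes shifted from -0.03 to 0.11 on the log2 scale, and the share of calls that were higher rose from 48.1% to 64.6%. On that scale H2-Ab1 (-0.24, limma adjusted p = 0.0372) and H2-Eb1 (-0.31, limma adjusted p = 0.016) were still called lower, H2-Aa (-0.11) and H2-Oa (-0.13) were not called, and Cd74 stood at -0.01. Relative to the median of all genes on that same scale, H2-Ab1 was at -0.35, H2-Eb1 at -0.42 and Ciita at 0.23.

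Over 9 scalings, H2-Ab1, H2-Eb1 and H2-Oa had a negative log2 fold change in all 9, with calls in 8, 8 and 4 of them. The uncalled scaling for H2-Ab1 and H2-Eb1 was that to 4 epithelial genes (Epcam, Cdh1, Krt8 and Krt18), which left them at -0.13 and -0.20. H2-Aa was negative in 7 scalings and near 0 when scaled to epithelial genes (0.00) or quantile normalized (0.01). Cd74, H2-DMb1 and H2-Ob changed sign among scalings. Cd74 ranged from -1.20, scaled to Ptprc, to 0.35 under quantile normalization, where it was called higher (limma adjusted p = 0.0243).

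Ciita was positive in 8 of the 9 scalings and was called higher in that to epithelial genes (0.43, limma adjusted p = 0.029), where the median of all genes was 0.19 and 73.3% of calls were higher. H2-DMa was positive in 7. Scaled to Ptprc, so that the leukocyte transcript is held level, all 9 members were called lower, as were 13523 of the 16275 genes tested, and Ciita stood at -0.64 against a median of -0.81 over all genes. On that scale 4.46% of calls were higher.

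**Figure D3:**
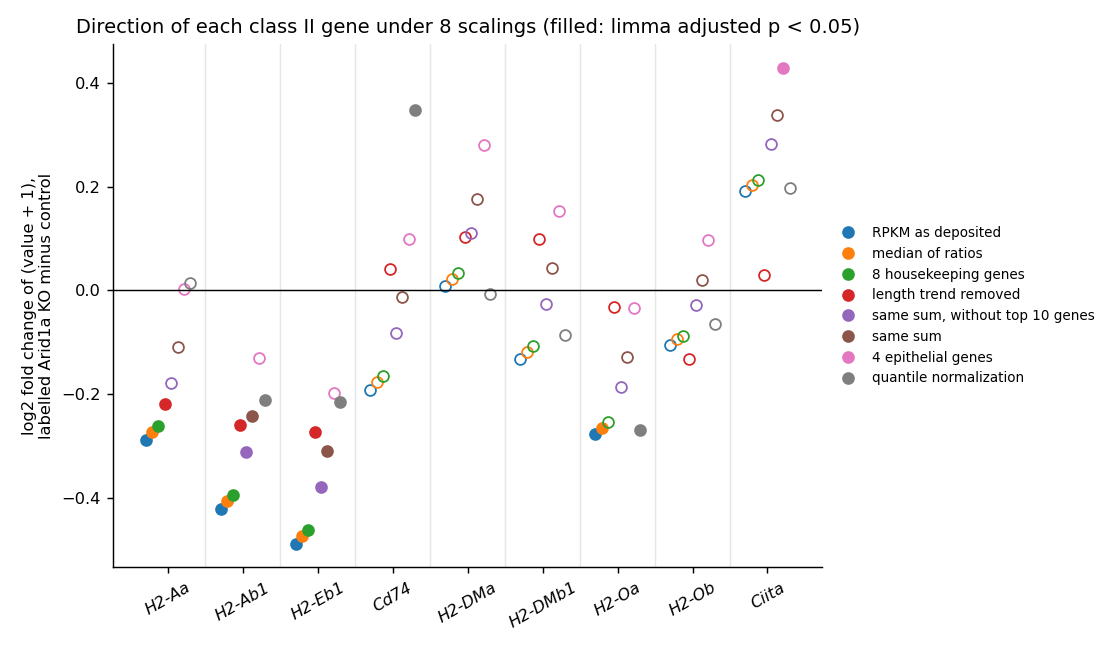
Log2 fold change of each class II member in sorted epithelium under the deposited scale and 7 others, from log2(value + 1), with filled points for a limma adjusted p under 0.05. H2-Ab1, H2-Eb1 and H2-Oa lie below 0 under all 8, Ciita lies above 0 under all 8, and Cd74 spans -0.19 to 0.35; scaling to Ptprc, which puts every member below 0, is not drawn.

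Ratios between members of the same library do not depend on scaling by a single factor. H2-Eb1 per unit of Cd74 was 0.332, 0.348 and 0.330 in the controls and 0.294, 0.267 and 0.261 in the libraries labelled Arid1a KO, a log2 difference of -0.30. H2-Ab1 per Cd74 was 0.502, 0.473 and 0.491 against 0.434, 0.416 and 0.401, a log2 difference of -0.23. The classical beta chains were thus lower relative to the invariant chain in all 3 libraries labelled Arid1a KO.

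H2-Aa per Cd74 also moved down, by less, with a log2 difference of -0.10 and no overlap. In the other direction, Ciita per Cd74 was 0.00194, 0.00146 and 0.00191 in the controls and 0.00212, 0.00237 and 0.00258 in the libraries labelled Arid1a KO, a log2 difference of 0.42, and H2-DMa per Cd74 differed by 0.20. Cd74 itself stood at -0.16 relative to the median of all genes on the deposited log2 scale. A gene at that median therefore also rises per unit of Cd74. H2-DMb1, H2-Oa and H2-Ob per Cd74 overlapped between groups. Each of the 5 ratios without overlap had a 2-sided exact permutation p of 0.1, the smallest that 3 against 3 libraries allow. After Benjamini-Hochberg adjustment over the 8 ratios it was 0.16, so none passed 0.05. On the deposited scale 66.7% of all genes tested did not overlap between groups, and the share for ratios to Cd74 was not computed. Quantile normalization, which is no single factor, turned the ratios of Ciita, H2-DMa, H2-DMb1 and H2-Ob to Cd74 negative.

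Macrophage markers were higher beside the class II changes, whereas the median dendritic cell marker was not. Of all genes tested on the deposited scale 27.5% were called higher and 29.6% lower. Macrophage markers were called higher in 9 of 9 (2 higher and 4 lower when scaled to Ptprc), with a median log2 fold change of 0.84 and a summed level of 1592 to 1888 RPKM in the controls and 2331 to 2839 RPKM in the libraries labelled Arid1a KO. Csf1r, the receptor for colony-stimulating factor 1, measured 98.8 to 106 RPKM against 162 to 178 RPKM. Among 8 dendritic cell markers 2 were called higher and 1, Batf3 at -1.01 on the log2 scale, lower. The 2 higher calls lie near the share of all genes. The median of their log2 changes was -0.03, equal to that of all genes tested. Their summed level was 66.6 to 78.1 against 122 to 128 RPKM, and Itgax made up most of the difference. Itgax, which encodes CD11c and is also made by macrophages, measured 25.3, 23.0 and 22.2 RPKM in the controls and 71.7, 70.1 and 66.5 RPKM in the libraries labelled Arid1a KO.

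B cell markers were called higher in 4 of 5 tested (2 of 5 with Arid1a KO B and C left out), with a summed level of 10.5 to 12.2 RPKM in the controls and 15.6 to 25.4 RPKM in the libraries labelled Arid1a KO. Cd79a, a chain of the B cell receptor complex, measured 3.36 to 3.53 against 5.15 to 9.13 RPKM. Cd79b, another chain of that complex, went the other way without passing the test (log2 fold change -0.20, limma adjusted p = 0.331). It stood at -0.51 with Arid1a KO B and C left out. On the deposited scale 27.5% of all genes tested were called higher and 29.6% lower. Scaled to Ptprc, 1 B cell marker was called higher and 1 lower. Of 6 pan-leukocyte markers 5 were higher and Cd52 was lower, with a summed level of 723 to 758 against 816 to 876 RPKM. None of these markers was at 0 in all libraries. In bulk samples a change in the number of such cells and a change in RNA per cell cannot be told apart, and the part these cells had in the class II levels was not tested.

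Ratios of the members to marker genes took the direction that most genes took, except for 1 member per unit of Krt8. Per unit of Ptprc the members in the libraries labelled Arid1a KO stood at between 0.355 times (H2-Eb1) and 0.584 times (Ciita) their control ratio, per unit of Csf1r at 0.421 to 0.692 times, and per unit of Itgax at 0.241 to 0.397 times. These 3 markers all rose, and the median gene stood at 0.485, 0.575 and 0.33 times, with 92.2%, 88% and 96.9% of 15977 genes below 1. Per unit of Cd52, the leukocyte marker that fell, all 9 members were above 1, as were most genes. Per unit of Epcam, the surface protein used in the sort, which fell from 279 to 351 RPKM in the controls to 183 to 225 RPKM, all 9 ratios were above 1, from 1.08 for H2-Eb1 to 1.77 for Ciita, with 18.7% of genes below 1. H2-Ab1, H2-Eb1 and H2-Ob overlapped between groups in that ratio, and the share of all genes that did so was not computed. Per unit of Krt8, an epithelial keratin that did not pass the test, 8 of 9 members were below 1, from 0.696 to 1.14 times, beside 54.6% of genes.

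**Figure D4:**
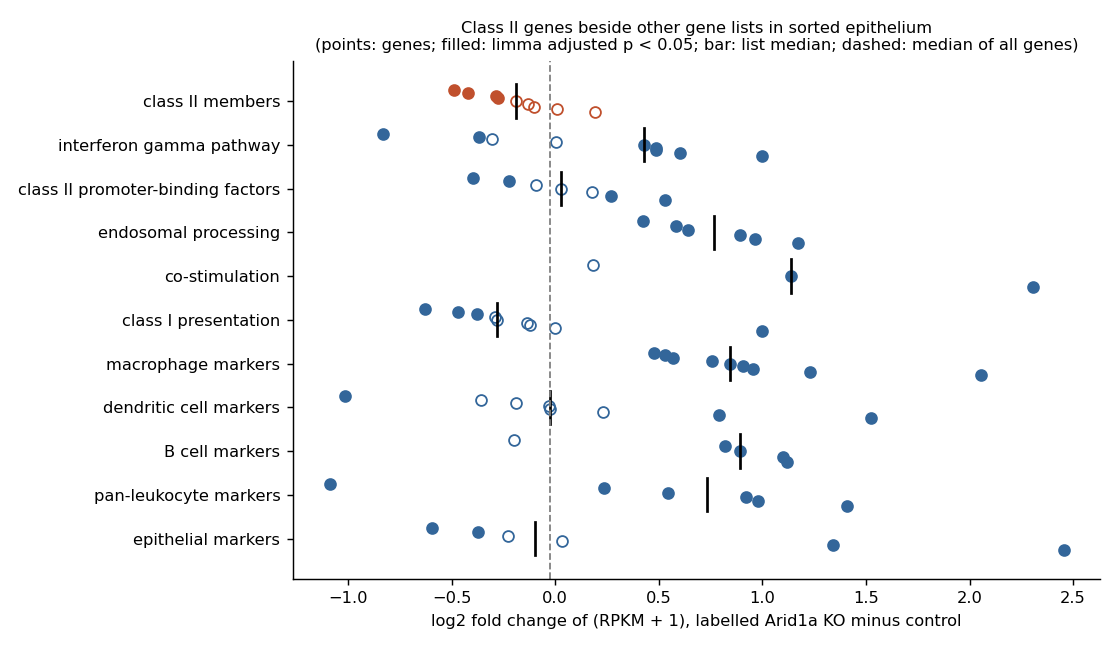
Log2 fold changes of log2(RPKM + 1) in sorted epithelium for the 9 class II members and 10 other gene lists, with 1 point per gene, filled for a limma adjusted p under 0.05, a bar at each list's median and a dashed line at the median of all genes (-0.03). The class II members lie between -0.49 and 0.19, whereas all endosomal processing genes and macrophage markers lie above 0.

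Other steps of the class II pathway did not move with the chains. The background on the deposited scale was 27.5% of all genes tested called higher. The endosomal processing genes were called higher in 6 of 6, with a median log2 fold change of 0.77, and were also called higher in every scaling except that to Ptprc, where 2 of 6 were called lower. Ctss, the cathepsin that cleaves the invariant chain in dendritic cells, B cells and macrophages, measured 345, 414 and 326 RPKM in the controls and 855, 789 and 791 RPKM in the libraries labelled Arid1a KO (log2 fold change 1.17, limma adjusted p = 0.000128). Lgmn, an asparagine endopeptidase of endosomes, rose with a log2 fold change of 0.97 (limma adjusted p = 6.15e-05).

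Of 3 co-stimulatory genes, 2 were called higher, beside 27.5% of all genes tested. Cd80, a ligand of CD28, averaged 3.77 ± 1.01 RPKM in the controls and 22.3 ± 2.09 RPKM in the libraries labelled Arid1a KO (SD, n = 3 in each), and Cd86, another, measured 9.04 to 9.89 against 20.6 to 23.3 RPKM. Cd40 measured 7.08 to 7.54 against 7.95 to 9.20 RPKM, with a limma adjusted p of 0.0757.

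Among 9 interferon gamma pathway genes 5 were called higher and 2 lower, beside 27.5% and 29.6% of all genes tested. Their median log2 fold change was 0.43. Ifng itself, the inducer, measured 1.45, 0.751 and 1.14 RPKM in the controls and 0.163, 0.222 and 0.144 RPKM in the libraries labelled Arid1a KO, without overlap (log2 fold change -0.83, limma adjusted p = 0.00149). Irf1, a transcription factor that activates the interferon-responsive Ciita promoter, was also lower, at 62.0 to 67.9 against 48.0 to 54.0 RPKM (log2 fold change -0.37, limma adjusted p = 0.00355). It lost this call when scaled to the same sum (-0.19, limma adjusted p = 0.0792). Ifngr1, a receptor chain, was higher, at 53.7 to 60.9 against 75.4 to 81.3 RPKM (log2 fold change 0.43, limma adjusted p = 0.00154). The scaling to Ptprc, in which 8 of these genes were called lower, was the exception to these increases.

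Of the 7 factors that bind class II promoters, 2 were called higher and 2 lower, a balance that moved with the scale: 4 higher and 0 lower when scaled to epithelial genes, 0 and 7 with Ptprc, and 1 and 1 with Arid1a KO B and C left out. Rfxank and Rfxap, subunits of RFX, had log2 fold changes of -0.40 (limma adjusted p = 0.00125) and -0.22 (limma adjusted p = 0.0366), and the Rfxap value turned to 0.04 at the highest of the scalings. Nfya, a subunit of NF-Y, rose with a log2 fold change of 0.53 (limma adjusted p = 0.000638) and Creb1 with 0.27 (limma adjusted p = 0.0433). Rfx5, the DNA-binding subunit of RFX, measured 4.41 to 5.33 against 5.55 to 5.71 RPKM, with a limma adjusted p of 0.0878. On the deposited scale 27.5% of all genes tested were called higher and 29.6% lower, so the counts of these factors lie near the background.

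The class I pathway, which shares its interferon response with class II, had 3 of 9 genes called lower and 1 higher in the epithelium. Of all genes tested 29.6% were called lower and 27.5% higher, so these counts lie near the background. The class I median log2 fold change was -0.28. Nlrc5, the class I counterpart of Ciita, was the gene that rose, from 5.20 to 5.88 RPKM in the controls to 11.4 to 12.5 RPKM. B2m, the class I light chain, fell from 2626 to 2954 RPKM to 1528 to 1945 RPKM (limma adjusted p = 0.00626). With Arid1a KO B and C left out 1 class I gene was called higher and 0 lower by limma. Scaled to epithelial genes 2 were called higher and 1 lower, with a median of 0.0054, and scaled to Ptprc 8 were called lower and none higher.

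By Pearson correlation over the 6 epithelium libraries, the 5 genes most like H2-Ab1 among 9020 genes with a mean of at least 5 RPKM were Ap3s2, Tspan3, Hs1bp3, Acot1 and Cd151 (r from 0.997 to 0.999). H2-Aa and H2-Eb1 had r of 0.992 and 0.981 with H2-Ab1, Cd74 0.88, and H2-DMa 0.171. All these values share libraries and a group difference, and 6 points describe no more than that.

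In Myc-CaP cells the class II pathway was at or near 0. H2-Eb1 and H2-Oa were listed at 0 in all 4 libraries. Only H2-DMa and H2-DMb1 had a mean of at least 0.5 TPM and were tested, and neither was called in a table where 6.43% of 13974 genes were called, 1.89% lower and 4.54% higher. Neither reached 1.5-fold with an unadjusted p under 0.05, as 6.28% of genes did. By limma, 0 of these 2 genes also had an unadjusted p under 0.05. The summed level of the 9 members was 2.10 and 2.41 TPM in the empty vector libraries and 2.37 and 1.78 TPM in the Arid1a KO libraries.

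H2-DMa measured 0.704 and 0.629 TPM with the empty vector and 0.534 and 0.658 TPM with Arid1a KO, with overlapping groups (log2 fold change -0.06, standard error 0.203, limma adjusted p = 0.899). H2-DMb1 measured 1.33 and 1.11 TPM against 1.04 and 0.922 TPM. Its groups did not overlap, as for 51.5% of genes tested in that table (26.6% with Arid1a KO lower), and its log2 fold change of -0.17 had a standard error of 0.185 (limma adjusted p = 0.67).

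Cd74 was listed at 0 and 0.366 TPM with the empty vector and at 0.599 and 0.186 TPM with Arid1a KO. Ciita was listed at 0.0304 and 0.104 TPM against 0 and 0.0175 TPM, H2-Aa at 0 and 0.121 TPM against 0 and 0, H2-Ab1 at 0 and 0 against 0.203 and 0 TPM, and H2-Ob at 0.033 and 0.075 TPM against 0 and 0. These levels are too low for a fold change. TPM keeps no depth, so how many reads they stand for is unknown.

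Leukocyte markers were likewise near 0 there, with Ptprc at 0 in 3 libraries and at 0.0441 TPM in the other and Ifng at 0 in all 4. Epithelial markers were also low in this line. Epcam was listed at 0 in 3 libraries and at 0.128 TPM in the other, and Krt8 measured 1.07 and 0.79 TPM with the empty vector and 40.3 and 38.8 TPM with Arid1a KO.

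The class I genes of the same cells were expressed and changed. Of 9, 8 were called higher with Arid1a KO, with a median log2 fold change of 0.81, and Nlrc5 measured 0.982 and 1.18 TPM against 2.22 and 1.75 TPM without passing the test (limma adjusted p = 0.197). With 1 library left out, which leaves a group with 1 library and few calls in the whole table, the class I median stayed between 0.70 and 0.92. The class II members gave no such value, since 7 of 9 were below the level needed for a test.

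**Figure D5:**
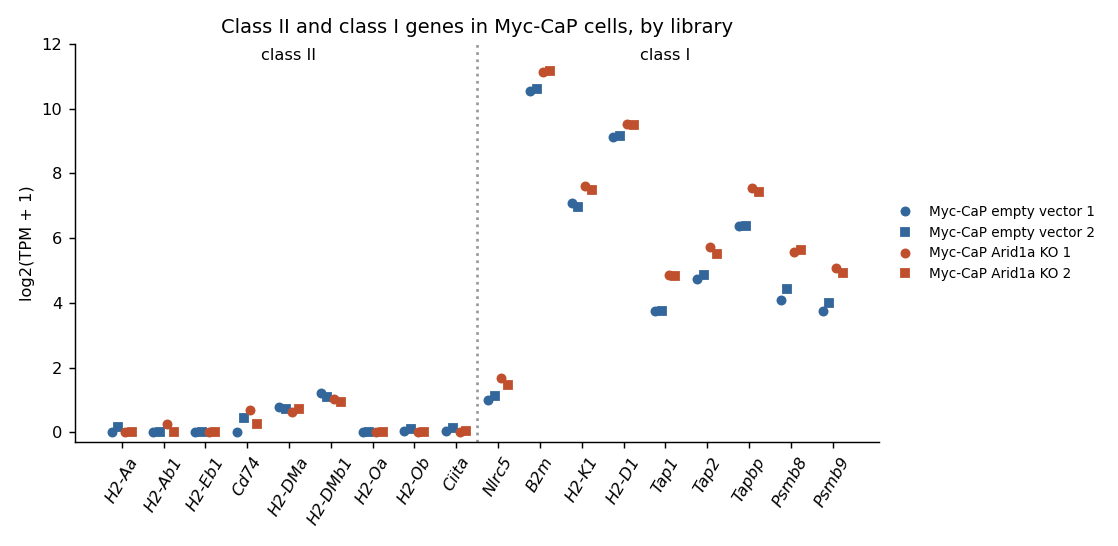
Levels of the 9 class II members and 9 class I genes in the 4 Myc-CaP libraries, as log2(TPM + 1), with circles for library 1 and squares for library 2 of each group. The class II members lie near 0, with H2-DMb1 highest at 0.922 to 1.33 TPM, and the Arid1a KO points lie above the empty vector points for all 9 class I genes.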

How the data were processed

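Total RNA of sorted prostate epithelium and Myc-CaP cells was sequenced. The authors aligned reads to mm10 and counted them per gene on the stated strand with HTSeq; the study names TopHat2 and the submitters' processing notes name HISAT2 and DESeq2. They deposited RPKM values for the epithelium and TPM values for Myc-CaP, 48897 rows each. RPKM divides by gene length and mapped reads, and TPM also fixes the sum of each library, so both are relative levels. The spacing of low RPKM values put the depth of the epithelium libraries at 28700000 to 36200000 reads, but only 20.7% to 24.5% of low values came out whole (within 0.03 of a whole read), so no count test was run. For Myc-CaP the depth is unknown. In the deposited row names 27 had been turned into dates and 4 rows repeated a name.

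From these values, log2(value + 1) was fitted per table with limma 3.58.1 (R 4.3.3; trended eBayes) for genes with a mean of at least 0.5, with Benjamini-Hochberg adjustment over all genes tested. The threshold for a call was an adjusted p under 0.05. Log2 fold changes refer to value + 1 and so understate the change of low genes. Ratios used exact permutation tests (scipy 1.17.1). Groups followed the labels. Some genes of the lists and a shared allele are not reported here. All 9 members were named, and other genes by fixed lists with up to 3 of each described; the members and lists were chosen with earlier results of these data known. Leave-one-out fits, 8 other scalings, other pseudocounts and filters and a block on the replicate label were tried. The script was tested on simulated data.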

Additional observations from a re-analysis of the deposited data

Results flagged for a closer look

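Compared were 31 genes tested in both systems, from the class II, class I, interferon gamma, promoter-binding and endosomal processing lists. Genes of the cell type marker and housekeeping lists are not counted here. In 8 of these 31, all Arid1a KO libraries lay on 1 side of the controls in the epithelium and on the other in Myc-CaP cells. That is 25.8%, beside 19.2% of all 12122 genes tested in both, so the count lies near the background and says little about these genes. The difference between the systems was not tested, and they differ in strain, tissue and unit. No class II member was among them, and only 2 members were tested in Myc-CaP cells.

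Of these, 5 belong to class I presentation. The log2 fold change of B2m was -0.63 in the epithelium and 0.56 in Myc-CaP cells. That of H2-K1, a class I heavy chain, was -0.47 and 0.53. Tapbp, the peptide loading factor tapasin, was at -0.12 and 1.12, and the immunoproteasome subunits Psmb8 and Psmb9 were at -0.28 and 1.34 and at -0.38 and 1.12. B2m, H2-K1 and Psmb9 passed the test in both systems. Their epithelium calls held in 7, 6 and 4 of 8 scalings, the deposited one included and that to Ptprc left out. In the epithelium Tapbp and Psmb8 did not pass, and Tapbp turned to 0.05 when scaled to the same sum.

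The other 3 genes act upstream of class II. Irf1 was at -0.37 and 0.14, Socs1, an inhibitor of interferon signalling, at -0.30 and 0.25, and Creb1 at 0.27 and -0.19. None of these 3 passed the test in Myc-CaP cells, and Socs1 did not pass in the epithelium either.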

How the results depend on the processing

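In sorted epithelium 4 members and 9294 genes were called. The number of members was 1 with no minimum level, 2 with the same sum (also without the 10 most abundant genes), 1, called higher, when scaled to epithelial genes, 9 with Ptprc, 2 to 3 with 1 library left out, and 0 with Arid1a KO B and C left out, where 5246 genes were called. Genes called were 5872 with a minimum mean of 5 and 14154 with Ptprc. No call in either table was tested against reads, which are unknown. Signs turned in these cases, and the cause was not tested. H2-Aa was at 0.0026 with epithelial genes and 0.014 with quantile normalization. H2-DMa was at -0.93 with Ptprc and -0.0076 with quantile normalization, and ran from -0.057 to 0.085 with 1 library left out. H2-DMb1 was at 0.043 with the same sum, 0.15 with epithelial genes and 0.10 with the length trend removed. H2-Ob was at 0.021 with the same sum and 0.10 with epithelial genes. Cd74 was at 0.10 with epithelial genes, 0.35 with quantile normalization and 0.041 with the length trend removed, and Ciita at -0.64 with Ptprc. Log2 ratios to Cd74 under quantile normalization were -0.36 for H2-DMa, -0.44 for H2-DMb1, -0.44 for H2-Ob and -0.11 for Ciita. That of H2-Ob was also -0.041 with Arid1a KO B and C left out and ran from -0.13 to 0.15 with 1 library left out. Letters did not pair the epithelium libraries (same-letter correlations of 0.04, 0.01 and -0.06). With a replicate block 3 members were called there, H2-Aa losing its call (adjusted p = 0.0716 in limma). In Myc-CaP cells same-number libraries had a correlation of 0.19 and different-number libraries of -0.19, and the main fit had no block. In that main fit 899 genes were called, 70.6% of them higher. The count was 2771 with the replicate block (52.4% higher), 358 with no minimum, 451 without the trend and 0 to 53 with 1 library left out. No member was called there under any alternative, and with a minimum mean of 5 none was tested.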

Other observations

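Other leukocyte lists in the sorted epithelium were read from the same fit, on the deposited scale. In that fit 27.5% of all genes tested were called higher and 29.6% lower. Among 6 neutrophil markers 3 were called higher in the libraries labelled Arid1a KO and none lower (4 of 6 higher with Arid1a KO B and C left out, and 0 higher and 2 lower when scaled to Ptprc), with a summed level of 337 to 474 RPKM in the controls and 383 to 631 RPKM in the libraries labelled Arid1a KO. Csf3r and Cxcr2, receptors of neutrophils, had log2 fold changes of 1.06 and 1.19. T cell markers were called higher in 3 of 6 (1 of 6 with Arid1a KO B and C left out, and 0 higher and 4 lower when scaled to Ptprc), with a summed level of 24.5 to 28.9 against 32.4 to 37.1 RPKM, and Cd4, the co-receptor that recognises class II, had a log2 fold change of 0.84, while Cd8a was at -0.07 and did not pass the test.

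Among 6 epithelial markers 2 were called higher and 2 lower. The basal keratins Krt5 and Krt14 had log2 fold changes of 1.34 and 2.45, Epcam and the luminal keratin Krt18 had -0.59 and -0.37, and Krt8 and Cdh1 were at 0.03 and -0.23 without passing the test. Batf3, a transcription factor of cross-presenting dendritic cells, had a log2 fold change of -1.01, whereas Ccr7, a receptor of migratory dendritic cells, had 0.79.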
